A study of Homo sapiens with 24 samples.

Results

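The genes described here are the human replication-dependent histone genes, the copies that supply histone protein to newly made DNA. They were taken as the entries whose symbol begins with HIST1H, HIST2H, HIST3H or HIST4H, without symbols ending in P or PS. Of 58735 entries in the count files 90 carried the prefix, 15 were set aside as pseudogene symbols and 75 were kept. The 75 were 6 linker histone H1 genes, 17 H2A, 23 H2B, 14 H3 and 15 H4 genes. In GENCODE release 29, on GRCh38, 70 of them were protein coding and 5 H2B entries were of a pseudogene type. HIST1 held 55 members on chromosome 6, HIST2 held 15 and HIST3 held 4 on chromosome 1, and HIST4 was a single H4 gene on chromosome 12.

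RNA was measured in 3 human breast cancer cell lines, each kept as an established culture line. HCC38 and HCC1937 were given EZH2i+AKTi or the solvent DMSO. HCC1395 was given EZH2i+AKTi, EZH2i alone, AKTi alone or DMSO. EZH2i was tazemetostat at 5 uM, an inhibitor of the histone H3 lysine methyltransferase EZH2, and AKTi was ipatasertib at 5 uM, an inhibitor of the AKT kinases. Each of the 8 groups held 3 libraries, marked A, B and C, and values of a group are given in that order. The length of treatment is not clear for these lines, because the only time course in the labels names another line and a chromatin assay. The labels do not say that A, B and C were separate cultures, so p-values measure the spread between these libraries, which may be technical.

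Replication-dependent histone genes sit in clusters, have no introns in their classical form and are transcribed mainly in S phase, with NPAT as the cluster-bound coactivator. Their messenger RNA usually ends in a stem-loop that is bound by SLBP, in place of a poly(A) tail, and it is degraded when DNA synthesis stops. The libraries were made from poly(A)-selected RNA. The counts therefore report mainly those histone transcripts that carried a tail, and not the whole histone messenger RNA of a cell. In bulk RNA, fewer cells expressing a gene and less of its RNA per cell cannot be told apart.

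Libraries held 33469927 to 51815656 counts. The 75 members made up 0.239 ± 0.0166% of the counts in HCC38 under EZH2i+AKTi and 0.300 ± 0.0126% in HCC38 under DMSO (SD, n = 3 each). In HCC1937 they made up 0.118 ± 0.00221% under EZH2i+AKTi and 0.0718 ± 0.00314% under DMSO, and in HCC1395 the group means ran from 0.0223% under DMSO to 0.0279% under EZH2i+AKTi. Of the 75, 71 had at least 1 count in some library and 4 had 0 counts in all 24. The epithelial keratin genes KRT8 and KRT18 were present in every line. The epithelial adhesion genes CDH1 and EPCAM were scarce in HCC1395. CDH1 averaged 0.179 to 0.743 CPM (counts scaled to library size by TMM) in the HCC1395 groups and 222 to 694 CPM in the groups of the other lines. EPCAM averaged 1.4 to 4.93 CPM in the HCC1395 groups and 206 to 508 CPM in the groups of the other lines. The leukocyte gene PTPRC averaged below 1 CPM in every group, with a highest library of 1.13 CPM in HCC1937 under EZH2i+AKTi. The endothelial gene PECAM1 averaged 21.7 to 30.9 CPM in HCC1937. Of the fibroblast genes, PDGFRB stayed below 1 CPM in every library. COL1A1 averaged 48.4 to 90.7 CPM in the HCC1395 groups and 11.6 to 32.2 CPM in the groups of the other lines. In HCC1395 under DMSO COL1A1 averaged 60.6 CPM, KRT8 32.5 CPM and KRT18 29.1 CPM. Among receptor genes, ESR1 averaged 13.1 to 20.8 CPM in the HCC1937 groups, 2.01 to 2.85 CPM in HCC38 and 0.0429 to 0.147 CPM in HCC1395. ERBB2 averaged 45.2 to 231 CPM over the groups, and PGR at most 0.0719 CPM. The share of counts from mitochondrial genes was 4.76 to 7.77% in HCC38 under EZH2i+AKTi and 5.08 to 5.82% under DMSO. In HCC1937 it was 6.72 to 8.54% under EZH2i+AKTi and 4.81 to 6.37% under DMSO. In HCC1395 it averaged 6.2% under EZH2i+AKTi, 4.74% under EZH2i, 5.55% under AKTi and 3.85% under DMSO. The part of this share in the histone results was not tested.

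The stem-loop is printed because it is the feature that normally replaces the tail. It was searched for past the stop codon of the GENCODE models as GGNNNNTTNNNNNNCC with a perfectly paired stem. It was found in 30 members, in 4 forms. Capitals mark the paired stem and lower case the loop, 5′ to 3′. The first form, in 17 members, included HIST1H2AC.
stem-loop of 17 members: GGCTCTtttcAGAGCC
stem-loop of 5 members: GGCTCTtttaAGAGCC
stem-loop of 5 members: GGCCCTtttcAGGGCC
stem-loop of 3 members: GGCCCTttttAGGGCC
In 34 models the annotation stops at the stop codon, among them HIST1H1C and HIST1H2BK, so no stem-loop could be looked for there.

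RefSeq promoters on GRCh38.p14, 250 bases before and 50 after the start, matched 65 of the 75 members. They were searched on both strands for the octamer ATTTGCAT, the site of the POU2F1 factor, for CCAAT, the site of the NF-Y factor, and for TATAAA. The octamer was in 77.8% of H2B promoters (14 of 18) and 68.8% of H2A promoters (11 of 16), but in 8.33% of H3 promoters (1 of 12) and in no H1 or H4 promoter. It was in 1.8% of all 27305 RefSeq promoters. CCAAT was in 84.6% of the members' promoters (55 of 65) and in 35.7% of all promoters. H4 stood apart within the family, with CCAAT in 23.1% of its promoters. TATAAA was in 66.2% of members (43 of 65) and in 12% of all promoters. A match says only that the letters are in this window.

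The promoters below belong to genes on which the results turn. HIST1H1C and HIST3H2A were the most abundant H1 gene and an abundant H2A gene whose changes differed between lines. HIST2H2BE was the H2B gene higher under EZH2i+AKTi in all 3 lines, and HIST1H2BG was called in all 3 lines but not in 1 direction. Capitals mark ATTTGCAT, CCAAT and TATAAA or their reverse complements ATGCAAAT, ATTGG and TTTATA.
HIST1H1C, chr6:26056421-26056720, minus strand: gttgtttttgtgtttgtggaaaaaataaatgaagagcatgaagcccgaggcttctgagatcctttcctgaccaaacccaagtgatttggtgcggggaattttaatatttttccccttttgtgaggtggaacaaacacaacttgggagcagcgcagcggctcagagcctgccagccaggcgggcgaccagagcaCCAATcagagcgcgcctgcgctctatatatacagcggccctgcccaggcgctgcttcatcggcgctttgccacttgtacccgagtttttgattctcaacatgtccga
HIST3H2A, chr1:228457824-228458123, minus strand: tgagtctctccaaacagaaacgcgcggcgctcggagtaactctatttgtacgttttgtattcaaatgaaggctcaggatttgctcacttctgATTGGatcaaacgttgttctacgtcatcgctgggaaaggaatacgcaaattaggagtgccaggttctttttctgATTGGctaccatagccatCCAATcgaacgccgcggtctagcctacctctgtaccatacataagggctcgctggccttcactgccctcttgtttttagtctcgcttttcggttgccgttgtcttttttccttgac
HIST2H2BE, chr1:149886633-149886932, minus strand: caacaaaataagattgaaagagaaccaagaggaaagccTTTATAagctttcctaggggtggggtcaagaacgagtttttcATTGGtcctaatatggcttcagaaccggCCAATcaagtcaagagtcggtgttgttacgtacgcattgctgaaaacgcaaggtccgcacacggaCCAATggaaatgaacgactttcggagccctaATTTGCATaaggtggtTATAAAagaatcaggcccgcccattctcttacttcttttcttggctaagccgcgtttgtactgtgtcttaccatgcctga
HIST1H2BG, chr6:26216639-26216938, minus strand: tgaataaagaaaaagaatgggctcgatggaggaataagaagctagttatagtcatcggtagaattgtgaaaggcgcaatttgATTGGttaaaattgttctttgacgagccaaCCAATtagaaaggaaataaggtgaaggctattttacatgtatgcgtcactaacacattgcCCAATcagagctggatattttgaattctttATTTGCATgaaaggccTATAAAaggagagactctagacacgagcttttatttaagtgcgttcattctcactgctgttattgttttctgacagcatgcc
HIST2H2BE and HIST1H2BG held the octamer 46 and 48 bases before the start. HIST1H1C and HIST3H2A held neither the octamer nor TATAAA. The CCAAT of HIST1H1C lay 57 bases before the start, and HIST3H2A had matches at 158, 84 and 66 bases before it.

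Histone RNA counted in these poly(A)-selected libraries was most abundant in HCC38, and its make-up differed between the lines. Whether the counted RNA carried a tail was not measured. The summed level of all members averaged 2299 ± 138 CPM in HCC38 under EZH2i+AKTi and 3014 ± 153 CPM under DMSO (SD, n = 3 each, here and below). In HCC1937 it averaged 1157 ± 37.2 CPM under EZH2i+AKTi and 711 ± 31.5 CPM under DMSO. In HCC1395 it averaged 284 ± 28.5 CPM under EZH2i+AKTi, 242 ± 4.55 under EZH2i, 258 ± 11.7 under AKTi and 228 ± 8.41 under DMSO. Without HIST3H2A, an alternative chosen after seeing the data, the HCC1395 sums were 206 ± 19.3 CPM under EZH2i+AKTi, 211 ± 4.38 under EZH2i, 198 ± 9.75 under AKTi and 204 ± 8.6 under DMSO, with overlap. The sums carry no test, since the members were chosen with results of these data known. A few genes held most of the counts pooled over all 24 libraries, in which HCC38 weighs most: HIST1H1C, HIST1H2BK, HIST1H2AC, HIST3H2A and HIST1H4I gave 66.1% of all member counts, the top 10 gave 83.8% and the top 20 gave 95.8%. These 5 also led in HCC38. The 5 leading genes gave 59.9% in HCC1937, with HIST1H2BD in place of HIST1H4I, and 65.3% in HCC1395, with HIST1H4H in place of HIST1H2AC.

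H1 genes gave 42.0% of member counts in HCC38 under EZH2i+AKTi and 43.1% under DMSO, against 9.70% and 5.77% in HCC1937 under EZH2i+AKTi and DMSO. In HCC1395 they gave 12.3% under EZH2i+AKTi and 13.9% under DMSO. For H1 the HCC38 sum was 961 ± 153 CPM under EZH2i+AKTi and 1300.2 ± 112 under DMSO, and the HCC1937 sum 111 ± 17 and 41.2 ± 4.46 CPM in the same order of treatments. For H2A it was 359 ± 7.96 CPM under EZH2i+AKTi and 416 ± 12.4 under DMSO in HCC38, and 481 ± 14.2 CPM under EZH2i+AKTi and 270.5 ± 20.6 under DMSO in HCC1937. In HCC38 the libraries of the treated and DMSO groups did not overlap for any of the 5 histone types, all lower under EZH2i+AKTi, with log2 ratios of the means from -0.44 for H1 and H2B to -0.21 for H2A. In HCC1937 they did not overlap for any type either, all higher under EZH2i+AKTi, from 0.29 for H3 to 1.43 for H1. Without HIST1H1C the H1 ratio in HCC1937 was 0.32. In HCC38 under DMSO HIST1H1C averaged 1286.1 CPM of the H1 sum of 1300.2 CPM, so the H1 sum there is nearly this gene alone.

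The HCC1395 sums differed by type and by agent. The H1 sum was 34.7 ± 5.74 CPM under EZH2i+AKTi, 34.3 ± 1.98 under EZH2i, 26.3 ± 1.76 under AKTi and 31.8 ± 1.63 under DMSO, and only AKTi alone was apart from DMSO, at a log2 ratio of -0.27. The H2A sum was 96.8 ± 9.19 CPM under EZH2i+AKTi, 53.9 ± 1.51 under EZH2i, 81.7 ± 2.81 under AKTi and 45.6 ± 1.21 under DMSO, log2 ratios of 1.09, 0.24 and 0.84 over DMSO without overlap of the libraries. HIST3H2A held most of that rise: the other 16 H2A genes summed to 19.3 ± 1.26 CPM under EZH2i+AKTi, 23.1 ± 0.403 under EZH2i, 20.9 ± 0.531 under AKTi and 20.9 ± 0.795 under DMSO, log2 ratios of -0.12, 0.14 and 0.00298. EZH2i alone then stayed apart from DMSO. The H3 sum was 19.2 ± 0.56 CPM under EZH2i+AKTi, 12 ± 0.302 under EZH2i, 18.8 ± 1.23 under AKTi and 12.1 ± 1.59 under DMSO, and EZH2i alone overlapped DMSO. The H2B sum, 96.6 ± 7.73 CPM under EZH2i+AKTi and 106 ± 4.48 under DMSO, and the H4 sum, 36.6 ± 5.8 and 33.3 ± 2.63 CPM under the same treatments, overlapped DMSO under every treatment.

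**Figure D1:**
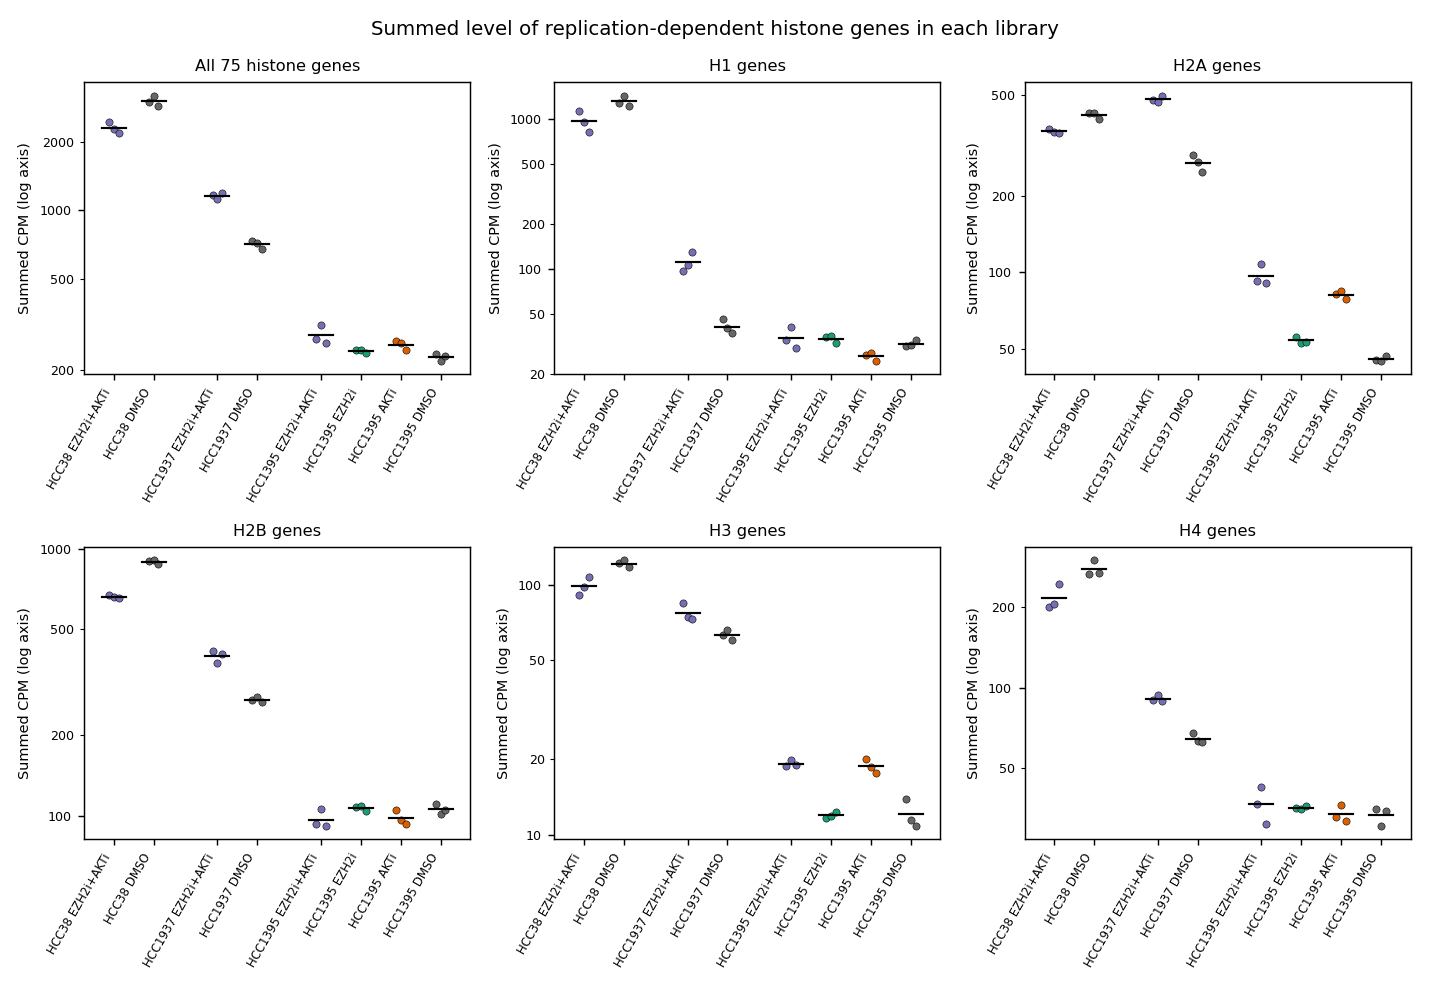
Summed CPM of all members and of the H1, H2A, H2B, H3 and H4 genes in each library, by group, on a log axis, with bars at the group means. All 5 types lie lower under EZH2i+AKTi than under DMSO in HCC38 and higher in HCC1937, and in HCC1395 the H2A sum averages 96.8 CPM under EZH2i+AKTi and 45.6 CPM under DMSO, or 19.3 and 20.9 CPM without HIST3H2A.

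Among DMSO libraries, most of the histone genes tested were higher in HCC38 than in either other line. Differences were tested with edgeR's quasi-likelihood test over all genes in a joint fit of the 24 libraries, with Benjamini-Hochberg adjusted p below 0.05 as a call. Of 57 members tested, 52 were higher and 1 was lower in HCC38 than in HCC1395, where 38.2% and 36.5% of all genes tested were called higher and lower. In HCC1937 against HCC1395, 34 were higher and 2 lower, HIST2H2AC and HIST2H2BA, against 37.3% and 35.7% of all genes. HIST2H2BA had 5 counts over all HCC1937 libraries. In HCC38 against HCC1937, 45 were higher and 1 lower, against 35.6% and 36.2% of all genes. The members' median log2 differences were 3.05, 0.94 and 1.33 in these 3 comparisons. The low-count filter of the joint fit ran over all 8 groups, so a member could be tested through 1 line alone. In the fits of single lines 55 members passed in HCC38, 47 in HCC1937 and 39 in HCC1395. A member that passed only through a line where it is high adds to the higher calls by that filter. Line and any batch that goes with the line cannot be told apart.

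HIST1H1C (chromosome 6, 26055787 to 26056428, minus strand), a gene of the linker histone that binds DNA between nucleosomes, stood far higher in HCC38 than in either other line. Under DMSO it stood at 1260.1, 1408 and 1190.4 CPM in HCC38, 44.7, 38.7 and 35.9 CPM in HCC1937 and 29.7, 30.5 and 32.2 CPM in HCC1395. The log2 difference was 5.38 ± 0.14 (SE) for HCC38 over HCC1395 (adjusted p = 3.23e-21) and 5.01 ± 0.14 for HCC38 over HCC1937 (adjusted p = 1.24e-20). HCC1937 and HCC1395 were close, though without overlap, at 0.37 ± 0.12 (adjusted p = 0.00941).

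HIST1H2AC (chromosome 6, 26124145 to 26139116, plus strand), a core histone H2A gene, had another order. It stood at 175, 172 and 166 CPM in HCC38, 182, 172 and 156 CPM in HCC1937 and 2.96, 2.87 and 2.56 CPM in HCC1395 under DMSO. HCC38 and HCC1937 overlapped, with a log2 difference of 0.01 ± 0.08 (adjusted p = 0.916), and both lay far above HCC1395, by 5.93 ± 0.11 and 5.92 ± 0.11. HIST2H2AC (chromosome 1, 149886975 to 149887364, plus strand) ran the other way, with 0.799, 0.748 and 0.818 CPM in HCC38, 1.27, 1.76 and 1.29 CPM in HCC1937 and 6.32, 4.64 and 5.76 CPM in HCC1395. It was the single member called lower in HCC38 than in either other line. The difference from HCC1937 was -0.87 ± 0.24 (adjusted p = 0.00173). Of 46 members that averaged at least 1 CPM under DMSO in some line, 44 were highest in HCC38, 1 in HCC1937 and 1 in HCC1395. A member could enter through its highest line alone, as HIST1H1E did, with 4.72 CPM in HCC38, 0.51 in HCC1937 and 0 in HCC1395. The same count was not made over all genes, so these numbers are not a result about histone genes.

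A set of HIST1 genes was near 0 in HCC1395 and present in both other lines. These 6 members had at most 10 counts in each HCC1395 library and over 10 in every HCC38 and HCC1937 library. The same count was not made over all genes, so the number is not a result about histone genes. Over all 12 HCC1395 libraries HIST1H2BE and HIST1H4D had 0 counts, HIST1H1E 1, HIST1H3G 6, HIST1H3C 28 and HIST1H2BD 30 counts. A count of 0 in 1 HCC1395 library allows up to 3 counts, or 0.0579 to 0.0896 CPM, for counting error only. HIST1H2BD, an H2B gene, averaged 121 CPM over the 6 HCC38 libraries and 70.1 CPM over the 6 HCC1937 libraries, and HIST1H3G, an H3 gene, 38.9 and 19.8 CPM in these lines. The other 4 averaged from 0.476 CPM, for HIST1H1E in HCC1937, to 4.22 CPM, for HIST1H2BE in HCC38.

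The order along chromosome 6 is shown next because 4 of the 6 are neighbours. HIST1H1E (26156354 to 26157107), HIST1H2BD (26158146 to 26171349), HIST1H2BE (26172059 to 26184655) and HIST1H4D (26188765 to 26189076) are members 16 to 19 in the order of start positions in HIST1, and the next, HIST1H3D and HIST1H2AD, had 0 counts in every line. HIST1H3D and HIST1H2AD each overlap the gene AL031777.3 on their own strand. How overlapping genes were counted is not given, so their 0 counts need not mean absent RNA. HIST1H3C and HIST1H3G are members 10 and 32. HIST1H2BF, which begins at 26199520, was present in HCC1395 with 2.07, 2.02 and 2.09 CPM under DMSO. DNA copy number was not analysed here, and the genes were picked by the level itself, so no test goes with them.

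**Figure D2:**
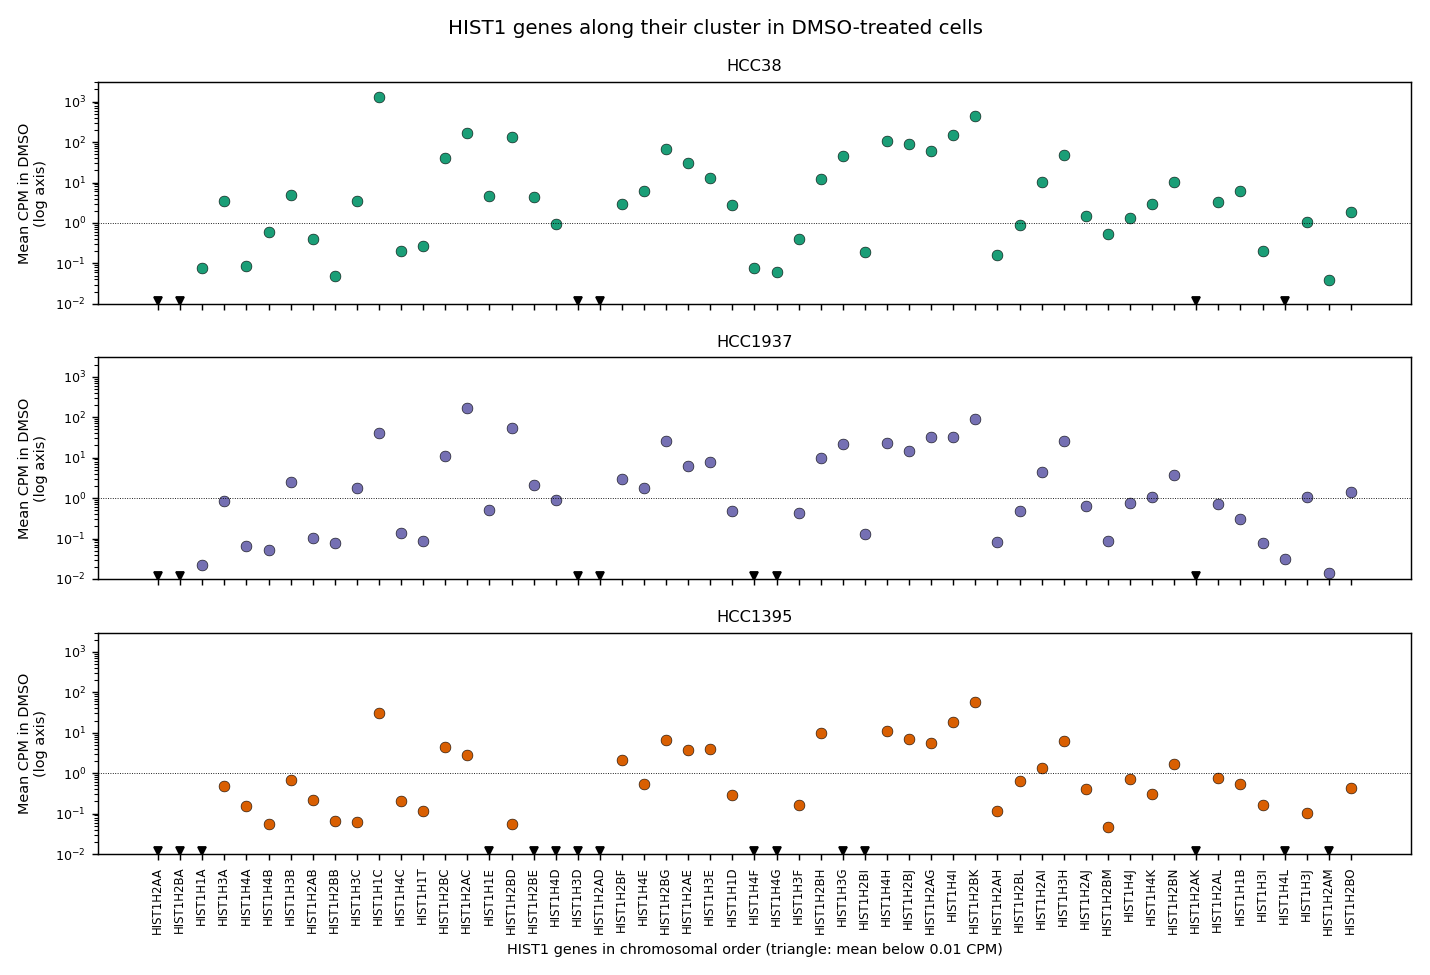
Mean CPM of each HIST1 member by line on a log axis under DMSO, with members in their order along chromosome 6 and triangles for means below 0.01 CPM. HIST1H1E, HIST1H2BE and HIST1H4D are at 0 and HIST1H2BD at 0.0559 CPM in HCC1395, and all 4 are higher in HCC38 and HCC1937.

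EZH2i+AKTi against DMSO asks how histone transcripts respond when both enzymes are inhibited, and the 3 lines gave 3 patterns. In HCC38, 28 of 55 tested members were lower and 1 was higher under EZH2i+AKTi, where 14.5% and 16.8% of all genes were lower and higher. Their median log2 change was -0.48, against -0.01 over all genes. In HCC1937, 21 of 47 were higher and 4 lower, against 30.5% and 28.8% of all genes, with a median of 0.39 against 0.03. In HCC1395, 9 of 39 were higher and 8 lower, against 32.5% and 27.4% of all genes, with a median of 0.09 against 0.07. A share near the background, as for the HCC1395 counts, is not a result about these genes. The HCC38 count was sensitive to leaving out 1 library, which gave 13 to 27 lower members. The fewest came without DMSO B or without EZH2i+AKTi B, and 16 and 18 came without DMSO A and C. No called HCC38 change reversed its direction in these fits. A smaller fit also has less power, which was not separated from dependence on a library. Without EZH2i+AKTi C, the HCC38 library with the highest mitochondrial share, 27 were lower. The 4 lower calls in HCC1937 became 2 without DMSO B or without EZH2i+AKTi A.

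**Figure D3:**
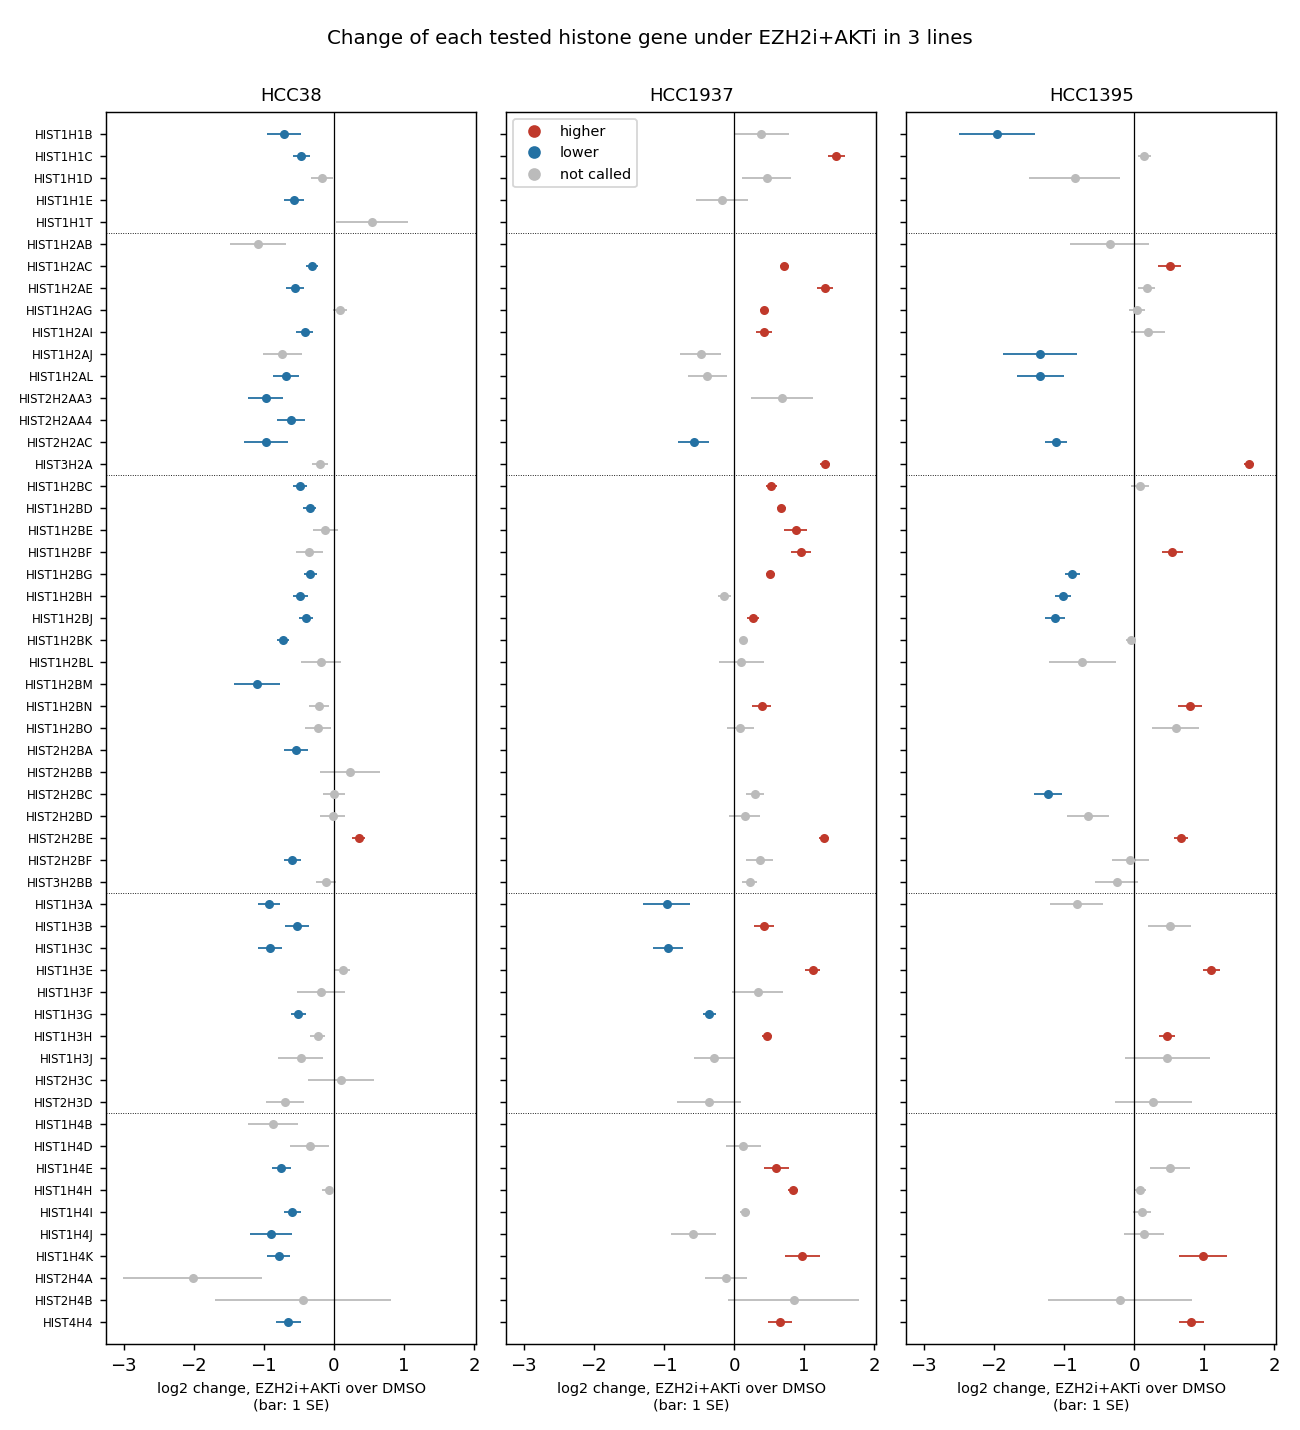
Log2 change with its SE of every member tested under EZH2i+AKTi over DMSO, in HCC38, HCC1937 and HCC1395, with called members in colour. In HCC38 28 members are called lower and 1 higher, in HCC1937 4 lower and 21 higher, and in HCC1395 8 lower and 9 higher.

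Of the linker histone genes, 3 of 5 tested fell in HCC38, 1 of 4 rose in HCC1937 and 1 of 3 fell in HCC1395 under EZH2i+AKTi. Among all genes 14.5% fell in HCC38, 30.5% rose in HCC1937 and 27.4% fell in HCC1395. The HCC1937 and HCC1395 counts are near these shares. HIST1H1C stood at 1106, 945 and 803 CPM in HCC38 under EZH2i+AKTi and 1260.1, 1408 and 1190.4 CPM under DMSO, 95.2, 105 and 128 CPM in HCC1937 under EZH2i+AKTi and 44.7, 38.7 and 35.9 CPM under DMSO, and 33.1, 40.5 and 29.1 CPM in HCC1395 under EZH2i+AKTi and 29.7, 30.5 and 32.2 CPM under DMSO. The groups did not overlap in HCC38, where all treated libraries were lower, or in HCC1937, where all were higher, and they overlapped in HCC1395. The log2 changes were -0.47 ± 0.12 in HCC38 (adjusted p = 0.0173), 1.46 ± 0.12 in HCC1937 (adjusted p = 4.25e-06) and 0.15 ± 0.09 in HCC1395 (adjusted p = 0.169). The HCC38 call was lost without DMSO B (adjusted p = 0.0861) or EZH2i+AKTi B (adjusted p = 0.0936). HIST1H1E, another linker gene, fell in HCC38 by 0.57 ± 0.14 (adjusted p = 0.0129), a call lost without DMSO B (adjusted p = 0.058). HIST1H1B stood at 5.14, 4.23 and 2.27 CPM in HCC38 under EZH2i+AKTi and 6.16, 6.82 and 5.87 CPM under DMSO. Its fall was called at adjusted p = 0.0453 and lost with RLE scaling (adjusted p = 0.0507), with a stricter low-count filter (adjusted p = 0.0682) and without DMSO A, B or C or EZH2i+AKTi B (adjusted p up to 0.152). In HCC1395 HIST1H1B was at 0.116, 0.0817 and 0.24 CPM under EZH2i+AKTi and 0.377, 0.313 and 0.918 CPM under DMSO, or 4 to 8 counts per library under EZH2i+AKTi and 11 to 33 under DMSO, and its call was lost without DMSO C (adjusted p = 0.0624).

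Of the H2A genes, whose protein pairs with H2B, 7 of 11 fell in HCC38, 5 of 9 rose and 1 fell in HCC1937, and 2 of 9 rose and 3 fell in HCC1395. The shares of all genes were 14.5% lower in HCC38, 30.5% higher and 28.8% lower in HCC1937, and 32.5% and 27.4% in HCC1395. The HCC1395 counts are near or below these shares. HIST1H2AC had 134, 140.5 and 149 CPM in HCC38 under EZH2i+AKTi and 175, 172 and 166 CPM under DMSO. In HCC1937 it had 282, 269 and 288 CPM under EZH2i+AKTi and 182, 172 and 156 CPM under DMSO, and in HCC1395 4.33, 2.98 and 4.76 CPM under EZH2i+AKTi and 2.96, 2.87 and 2.56 CPM under DMSO. All treated libraries were lower than DMSO in HCC38 and higher in HCC1937 and HCC1395. Its log2 changes were -0.31 ± 0.09 (adjusted p = 0.0212), 0.72 ± 0.06 (adjusted p = 1.21e-07) and 0.51 ± 0.16 (adjusted p = 0.00925) in HCC38, HCC1937 and HCC1395. The HCC38 call was lost without DMSO A, B or C or EZH2i+AKTi B, with adjusted p up to 0.114.

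HIST3H2A (chromosome 1, 228456979 to 228457873, minus strand), an H2A gene of the small HIST3 cluster, had 131, 115 and 101 CPM in HCC38 under EZH2i+AKTi and 134, 134 and 123 CPM under DMSO. In HCC1937 it had 128, 134 and 139 CPM under EZH2i+AKTi and 61, 52.6 and 49.2 CPM under DMSO, and in HCC1395 74.2, 87.9 and 70.5 CPM under EZH2i+AKTi and 23.5, 24.4 and 26.3 CPM under DMSO. The groups overlapped in HCC38 and were well apart in the other lines. It rose by 1.30 ± 0.07 in HCC1937 (adjusted p = 1.33e-09) and 1.64 ± 0.07 in HCC1395 (adjusted p = 1.49e-13), and the HCC38 value was -0.20 ± 0.11 (adjusted p = 0.202).

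HIST2H2AC was lower in all 3 lines, with log2 changes of -0.97 ± 0.31 in HCC38 (adjusted p = 0.037), -0.57 ± 0.22 in HCC1937 (adjusted p = 0.0375) and -1.11 ± 0.16 in HCC1395 (adjusted p = 4.95e-06). It was scarce in HCC38, at 0.489, 0.473 and 0.249 CPM under EZH2i+AKTi and 0.799, 0.748 and 0.818 CPM under DMSO, and in HCC1937, at 0.95, 0.814 and 1.13 CPM under EZH2i+AKTi and 1.27, 1.76 and 1.29 CPM under DMSO. In HCC1395 it had 2.1, 3.29 and 2.37 CPM under EZH2i+AKTi and 6.32, 4.64 and 5.76 CPM under DMSO. Groups did not overlap in any line, but the HCC38 and HCC1937 calls were lost with DESeq2 (adjusted p = 0.0677 and 0.067). They were also lost in HCC38 without DMSO A, B or C or EZH2i+AKTi B or C (adjusted p up to 0.108), and in HCC1937 without DMSO B or EZH2i+AKTi A or B (adjusted p up to 0.186).

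HIST1H2AE had 24.8, 20.5 and 19.4 CPM in HCC38 under EZH2i+AKTi and 30.2, 34.7 and 28.2 CPM under DMSO, and 14.1, 14.6 and 17.2 CPM in HCC1937 under EZH2i+AKTi and 7.05, 6.1 and 5.56 CPM under DMSO. The changes were -0.56 ± 0.13 (adjusted p = 0.00834) and 1.30 ± 0.11 (adjusted p = 8.9e-08), without overlap in either line. The HCC38 call was lost without DMSO B (adjusted p = 0.0513) or EZH2i+AKTi B (adjusted p = 0.0626). HIST1H2AI, which shares sequence with HIST1H2AJ so that their counts are uncertain, had 8.08, 7.37 and 8.08 CPM in HCC38 under EZH2i+AKTi and 10.1, 9.55 and 11.2 CPM under DMSO, and 5.86, 6.58 and 5.76 CPM in HCC1937 under EZH2i+AKTi and 4.52, 4.87 and 4.12 CPM under DMSO. It changed by -0.42 ± 0.12 in HCC38 (adjusted p = 0.0205) and 0.43 ± 0.12 in HCC1937 (adjusted p = 0.0056). Its HCC38 call was lost without DMSO A or C or EZH2i+AKTi B (adjusted p up to 0.122). HIST1H2AG had 59.5, 66 and 68.6 CPM in HCC38 under EZH2i+AKTi and 61.6, 57.6 and 59.9 CPM under DMSO, 44.1, 42 and 43.9 CPM in HCC1937 under EZH2i+AKTi and 33, 31.8 and 31.8 CPM under DMSO, and 5.22, 6.07 and 6.47 CPM in HCC1395 under EZH2i+AKTi and 5.81, 5.98 and 5.26 CPM under DMSO. It rose in HCC1937, where the groups were apart, by 0.43 ± 0.06 (adjusted p = 2.98e-05) and was not called in HCC38 or HCC1395. HIST2H2AA3 had 3.01, 1.85 and 1.41 CPM in HCC38 under EZH2i+AKTi and 3.77, 3.71 and 4.63 CPM under DMSO. It fell there by 0.97 ± 0.25 (adjusted p = 0.0142), but every one of its 50-base stretches occurs in other members, and the call was lost without DMSO C (adjusted p = 0.0549) or EZH2i+AKTi B (adjusted p = 0.0778).

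Of the H2B genes, 9 of 19 fell and 1 rose in HCC38, 8 of 16 rose in HCC1937, and 3 of 14 rose and 4 fell in HCC1395. For all genes the shares were 14.5% lower and 16.8% higher in HCC38, 30.5% higher in HCC1937, and 32.5% higher and 27.4% lower in HCC1395. The HCC1395 counts are near or below these shares. HIST1H2BK (chromosome 6, 27146418 to 27146798, minus strand), the most abundant H2B gene, had 288, 271 and 275 CPM in HCC38 under EZH2i+AKTi and 457, 451 and 439.8 CPM under DMSO. In HCC1937 it had 107, 93.8 and 101 CPM under EZH2i+AKTi and 91.8, 92.7 and 91.9 CPM under DMSO, and in HCC1395 53.1, 61.9 and 53.1 CPM under EZH2i+AKTi and 60.4, 54.2 and 57.3 CPM under DMSO. It fell by 0.72 ± 0.08 in HCC38 (adjusted p = 0.000157), with the groups far apart and the call kept under every alternative tried. The change was 0.12 ± 0.06 in HCC1937 (adjusted p = 0.0854) and -0.04 ± 0.07 in HCC1395 (adjusted p = 0.643), neither called.

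HIST2H2BE (chromosome 1, 149884459 to 149886652, minus strand) was the member called higher in all 3 lines. It had 70.2, 75.5 and 78.7 CPM in HCC38 under EZH2i+AKTi and 57.7, 54.9 and 59.5 CPM under DMSO, 104, 88.8 and 97.5 CPM in HCC1937 under EZH2i+AKTi and 41, 40.6 and 37.6 CPM under DMSO, and 12.5, 12.5 and 11.9 CPM in HCC1395 under EZH2i+AKTi and 9.1, 7.31 and 6.78 CPM under DMSO. Every treated library was above every DMSO library of its line. The changes were 0.35 ± 0.09 (adjusted p = 0.0159), 1.28 ± 0.07 (adjusted p = 6.27e-10) and 0.67 ± 0.10 (adjusted p = 6.49e-06) in HCC38, HCC1937 and HCC1395. The HCC38 call was lost without DMSO A, B or C or EZH2i+AKTi B (adjusted p from 0.0556 to 0.0833).

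HIST1H2BG and HIST1H2BJ fell in HCC38 and HCC1395 and rose in HCC1937. HIST1H2BG had 55.9, 51 and 51.9 CPM in HCC38 under EZH2i+AKTi and 64.5, 66.5 and 65.6 CPM under DMSO, 37.6, 37.1 and 37.3 CPM in HCC1937 under EZH2i+AKTi and 26, 26 and 26 CPM under DMSO, and 3.58, 3.7 and 3.71 CPM in HCC1395 under EZH2i+AKTi and 6.67, 7.08 and 6.37 CPM under DMSO, without overlap in any line. Its changes were -0.34 ± 0.09 (adjusted p = 0.0173), 0.52 ± 0.06 (adjusted p = 4.43e-06) and -0.88 ± 0.10 (adjusted p = 2.94e-07) in HCC38, HCC1937 and HCC1395. HIST1H2BJ had 74.2, 66.2 and 66.1 CPM in HCC38 under EZH2i+AKTi and 86, 93.7 and 87.5 CPM under DMSO, 16.6, 17.3 and 18.4 CPM in HCC1937 under EZH2i+AKTi and 15.7, 14.2 and 13.3 CPM under DMSO, and 3, 3.88 and 2.91 CPM in HCC1395 under EZH2i+AKTi and 7.32, 7.26 and 6.84 CPM under DMSO, again without overlap. It changed by -0.40 ± 0.10 in HCC38 (adjusted p = 0.0101), 0.28 ± 0.09 in HCC1937 (adjusted p = 0.0111) and -1.13 ± 0.14 in HCC1395 (adjusted p = 6.53e-07). In HCC38 the HIST1H2BG call was lost without DMSO A, B or C or EZH2i+AKTi B (adjusted p up to 0.125) and that of HIST1H2BJ without DMSO B or EZH2i+AKTi B (adjusted p up to 0.0839). In HCC1937 the HIST1H2BJ call was lost without DMSO C (adjusted p = 0.0671) or EZH2i+AKTi C (adjusted p = 0.076).

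HIST1H2BD, near 0 in HCC1395, had 108, 111 and 103 CPM in HCC38 under EZH2i+AKTi and 130.2, 141 and 129.8 CPM under DMSO, and 85.6, 79.9 and 93.2 CPM in HCC1937 under EZH2i+AKTi and 52.5, 56.9 and 52.2 CPM under DMSO. It fell by 0.35 ± 0.09 in HCC38 (adjusted p = 0.0149) and rose by 0.68 ± 0.07 in HCC1937 (adjusted p = 5.33e-07), and the HCC38 call was lost without DMSO A or B or EZH2i+AKTi B (adjusted p up to 0.0762). HIST1H2BC, another H2B gene, was lower in HCC38 and higher in HCC1937, at 28.6, 33.1 and 28.5 CPM in HCC38 under EZH2i+AKTi and 43.6, 39.9 and 39.8 CPM under DMSO, a change of -0.48 ± 0.10 (adjusted p = 0.0059), and 16.8, 16 and 15.2 CPM in HCC1937 under EZH2i+AKTi and 10.8, 11.6 and 10.7 CPM under DMSO, a change of 0.53 ± 0.08 (adjusted p = 5.5e-05). The groups did not overlap in either line. HIST1H2BF rose in HCC1937 (0.96 ± 0.15, adjusted p = 4.19e-05) and HCC1395 (0.54 ± 0.15, adjusted p = 0.00342). HIST1H2BN rose in the same lines, by 0.39 ± 0.14 (adjusted p = 0.0251) and 0.80 ± 0.17 (adjusted p = 0.00048), and its HCC1937 call was lost without DMSO A or EZH2i+AKTi A or B (adjusted p up to 0.107). HIST2H2BC, of a pseudogene type, fell in HCC1395 to 1.48, 1.27 and 1.92 CPM under EZH2i+AKTi, against 3.34, 3.19 and 4.2 CPM under DMSO (-1.23 ± 0.20, adjusted p = 1.55e-05), and shares sequence with other HIST2H2B entries.

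Of the H3 genes, 4 of 10 fell in HCC38, 3 of 9 rose and 3 fell in HCC1937, and 2 of 6 rose in HCC1395. All genes gave 14.5% lower in HCC38, 30.5% higher and 28.8% lower in HCC1937, and 32.5% higher in HCC1395. The HCC1937 and HCC1395 counts are near these shares. HIST1H3E (chromosome 6, 26224199 to 26227473, plus strand) had 13.4, 15.5 and 14.8 CPM in HCC38 under EZH2i+AKTi and 13.1, 13.5 and 12.7 CPM under DMSO, 19.4, 15.8 and 15.2 CPM in HCC1937 under EZH2i+AKTi and 7.41, 8.39 and 7.29 CPM under DMSO, and 8.55, 8.05 and 9.56 CPM in HCC1395 under EZH2i+AKTi and 4.76, 3.7 and 3.59 CPM under DMSO. It rose by 1.12 ± 0.11 in HCC1937 (adjusted p = 2.99e-07) and 1.10 ± 0.13 in HCC1395 (adjusted p = 1.82e-07), without overlap, and changed by 0.12 ± 0.11 in HCC38 (adjusted p = 0.411), where it was not called. HIST1H3H rose by 0.47 ± 0.07 in HCC1937 (adjusted p = 2.39e-05) and 0.46 ± 0.11 in HCC1395 (adjusted p = 0.00134).

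HIST1H3A, HIST1H3C and HIST1H3G fell in both HCC38 and HCC1937. HIST1H3C had 1.79, 1.94 and 1.94 CPM in HCC38 under EZH2i+AKTi and 3.91, 2.81 and 3.7 CPM under DMSO, and 1.06, 0.912 and 0.807 CPM in HCC1937 under EZH2i+AKTi and 2, 1.85 and 1.48 CPM under DMSO, changes of -0.91 ± 0.18 (adjusted p = 0.00335) and -0.94 ± 0.21 (adjusted p = 0.0012). HIST1H3G had 30.7, 32.5 and 34.3 CPM in HCC38 under EZH2i+AKTi and 46.3, 48.7 and 40.8 CPM under DMSO, and 20.2, 16.2 and 15.7 CPM in HCC1937 under EZH2i+AKTi and 21.3, 23.1 and 21.9 CPM under DMSO, changes of -0.51 ± 0.10 (adjusted p = 0.00476) and -0.35 ± 0.09 (adjusted p = 0.0041). Neither gene's groups overlapped in these lines. HIST1H3A had 1.69, 1.94 and 2.05 CPM in HCC38 under EZH2i+AKTi and 3.37, 3.68 and 3.53 CPM under DMSO, a change of -0.93 ± 0.16 (adjusted p = 0.0017) without overlap. In HCC1937 its change was -0.96 ± 0.34 (adjusted p = 0.022) at under 1 CPM, lost without DMSO A or B or EZH2i+AKTi A or C (adjusted p up to 0.0835). HIST1H3B had 2.79, 3.65 and 4.26 CPM in HCC38 under EZH2i+AKTi and 5.11, 5.21 and 4.71 CPM under DMSO, and 3.42, 2.96 and 3.6 CPM in HCC1937 under EZH2i+AKTi and 2.45, 2.6 and 2.35 CPM under DMSO. It changed in opposite directions, -0.52 ± 0.17 in HCC38 (adjusted p = 0.0383) and 0.43 ± 0.14 in HCC1937 (adjusted p = 0.0183). The HCC38 call was lost without DMSO A, B or C or EZH2i+AKTi A or B (adjusted p up to 0.122), and the HCC1937 call without DMSO C or EZH2i+AKTi A or C (adjusted p up to 0.0917).

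Of the H4 genes, nearly all of which encode the same protein, 5 of 10 fell in HCC38, 4 of 9 rose in HCC1937 and 2 of 7 rose in HCC1395. Over all genes 14.5% fell in HCC38, 30.5% rose in HCC1937 and 32.5% rose in HCC1395, the last near the H4 count. HIST1H4I (chromosome 6, 27138588 to 27139881, plus strand), the most abundant, had 92.7, 93.4 and 115 CPM in HCC38 under EZH2i+AKTi and 145, 164 and 136 CPM under DMSO, a change of -0.59 ± 0.12 (adjusted p = 0.00379). In the other lines it had 33.1, 36 and 38.4 CPM in HCC1937 under EZH2i+AKTi and 33.6, 30.9 and 31.7 CPM under DMSO, and 19.2, 24.2 and 15 CPM in HCC1395 under EZH2i+AKTi and 19.2, 16.5 and 18.1 CPM under DMSO, with overlap, and was not called in HCC1937 (0.16 ± 0.07, adjusted p = 0.0734) or HCC1395 (0.12 ± 0.13, adjusted p = 0.467). HIST1H4H stood at 95.1, 97.4 and 109.9 CPM in HCC38 under EZH2i+AKTi and 102, 107 and 102 CPM under DMSO, and 10.6, 12.9 and 11.1 CPM in HCC1395 under EZH2i+AKTi and 11.1, 10.5 and 10.8 CPM under DMSO, overlapping in both. It rose in HCC1937 to 43.2, 43.4 and 40.2 CPM under EZH2i+AKTi, against 22.1, 24.6 and 23.9 CPM under DMSO (0.84 ± 0.07, adjusted p = 8.36e-08).

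HIST4H4 (chromosome 12, 14767999 to 14771131, minus strand), alone on its chromosome, was called in every line. It had 2.01, 2.05 and 2.02 CPM in HCC38 under EZH2i+AKTi and 3.74, 2.57 and 3.02 CPM under DMSO, 3.15, 2.54 and 2.44 CPM in HCC1937 under EZH2i+AKTi and 1.73, 1.89 and 1.5 CPM under DMSO, and 2.5, 2.27 and 2.55 CPM in HCC1395 under EZH2i+AKTi and 1.59, 1.11 and 1.42 CPM under DMSO. It was lower in HCC38 (-0.65 ± 0.18, adjusted p = 0.0195) and higher in HCC1937 (0.66 ± 0.17, adjusted p = 0.00373) and HCC1395 (0.82 ± 0.18, adjusted p = 0.000582), without overlap. The HCC38 call was lost without DMSO A or C or EZH2i+AKTi B (adjusted p up to 0.102). HIST1H4E had 3.74, 3.96 and 3.27 CPM in HCC38 under EZH2i+AKTi and 6.39, 6.14 and 5.59 CPM under DMSO, and 3.04, 2.74 and 2.16 CPM in HCC1937 under EZH2i+AKTi and 1.95, 1.61 and 1.64 CPM under DMSO. It fell in HCC38 (-0.75 ± 0.14, adjusted p = 0.00281) and rose in HCC1937 (0.60 ± 0.18, adjusted p = 0.00841). HIST1H4K, every 50-base stretch of which is also in HIST1H4J, had 1.88, 1.76 and 1.49 CPM in HCC38 under EZH2i+AKTi and 3.02, 2.99 and 2.71 CPM under DMSO, 2.14, 2.54 and 1.46 CPM in HCC1937 under EZH2i+AKTi and 1.37, 0.749 and 0.999 CPM under DMSO, and 0.635, 0.593 and 0.599 CPM in HCC1395 under EZH2i+AKTi and 0.242, 0.313 and 0.361 CPM under DMSO. It was called in all 3 lines in the directions of HIST4H4, with -0.79 ± 0.17, 0.98 ± 0.25 and 0.98 ± 0.34 in HCC38, HCC1937 and HCC1395. Its HCC1395 call was lost without the low-count filter (adjusted p = 0.0575) or without DMSO A (adjusted p = 0.0717). The near-identical HIST2H4A and HIST2H4B were uneven within groups, HIST2H4B at 1.42, 3.92 and 8.8 CPM in HCC38 under EZH2i+AKTi and 1.23, 1.44 and 15.9 CPM under DMSO, and neither was called under EZH2i+AKTi in any line.

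**Figure D4:**
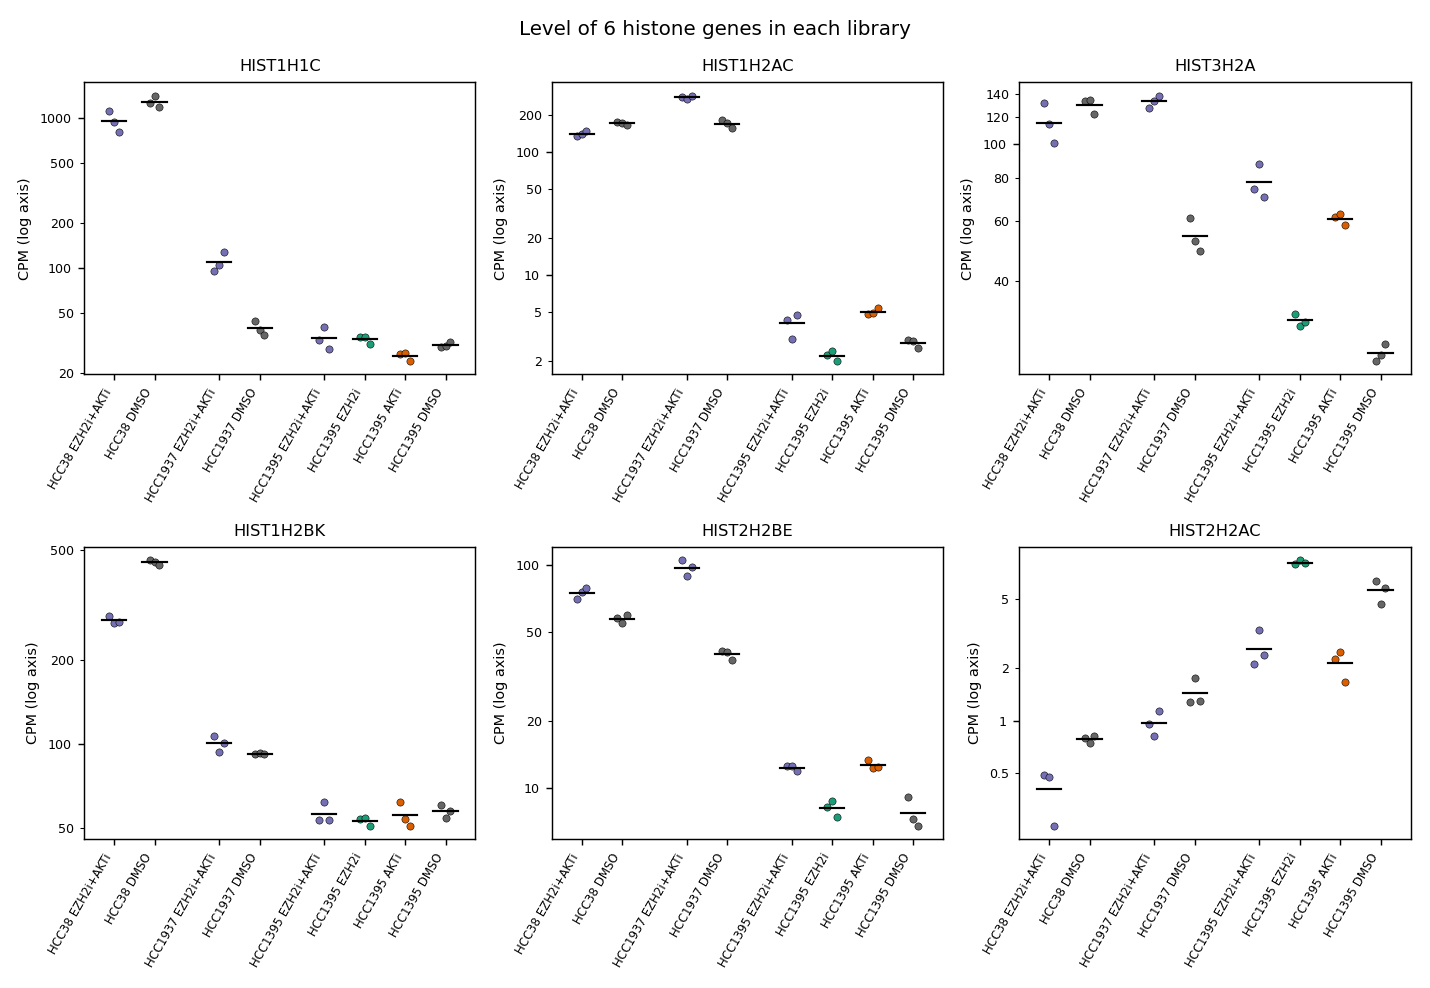
CPM in each library of HIST1H1C, HIST1H2AC, HIST3H2A, HIST1H2BK, HIST2H2BE and HIST2H2AC, by group, on a log axis, with bars at the group means. HIST2H2BE lies higher under EZH2i+AKTi than under DMSO in every line, while HIST1H1C lies lower in HCC38 and higher in HCC1937.

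The differences between lines were tested directly in the joint fit, as the change under EZH2i+AKTi over DMSO in 1 line minus that in the other. These 3 tests share each line's libraries. For HCC38 minus HCC1937, 25 of 57 members were lower and 0 higher, against 14.3% and 17.7% of all genes, with a median of -0.71. None was higher at an unadjusted p below 0.05 in edgeR's test, and DESeq2 called 0 higher. For HCC38 minus HCC1395, 15 were lower and 4 higher, against 15.6% and 17.4%, with a median of -0.53. The 4 were HIST1H2BG, HIST1H2BH, HIST1H2BJ and HIST2H2BC, all H2B entries that were lower in HCC1395. For HCC1937 minus HCC1395, 11 were higher and 1 lower, against 11.3% and 12% of all genes, with a median of 0.41. The lower one was HIST3H2A (-0.35 ± 0.13, adjusted p = 0.045), named after its value was seen, and that call was lost with RLE scaling (adjusted p = 0.0571), with DESeq2 (adjusted p = 0.058), with a stricter low-count filter (adjusted p = 0.0853) and without any of several libraries (adjusted p up to 0.157, without HCC1937 DMSO A).

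In all, 12 members were called in opposite directions in a pair of lines. The share of all genes called in this way was not counted, so the number alone is not a result about histone genes. Each of the 12 fell in HCC38 and rose in HCC1937: HIST1H1C, HIST1H2AC, HIST1H2AE, HIST1H2AI, HIST1H2BC, HIST1H2BD, HIST1H2BG, HIST1H2BJ, HIST1H3B, HIST1H4E, HIST1H4K and HIST4H4. The difference of the changes was itself called for each of them. Since they were picked by opposite calls in the same libraries, that test is no separate support and gives the size of the difference. HIST1H1C gave -1.89 ± 0.17 (adjusted p = 4.32e-09) and HIST1H2AE -1.82 ± 0.16 (adjusted p = 4.91e-10) for HCC38 minus HCC1937. HIST1H2BG gave 1.39 ± 0.11 (adjusted p = 2.4e-11) for HCC1937 minus HCC1395, and HIST4H4 -1.44 ± 0.25 (adjusted p = 4.04e-05) for HCC38 minus HCC1395.

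HCC1395 was also given the agents singly. Under AKTi 11 of 39 members were higher and 10 lower, against 27.1% and 22.6% of all genes, with a median of -0.02 against 0.06. Under EZH2i 5 were higher and 0 lower, against 18.8% and 14.9% of all genes, with a median of 0.10 against 0.02. With edgeR's quasi-likelihood test at an unadjusted p below 0.05, 1 member was lower under EZH2i, and DESeq2 called 0. The 5 were HIST3H2A, HIST2H2AC, HIST1H2BN, HIST1H2BH and HIST1H3J, and became 3 without DMSO B or C. The 0 lower under EZH2i became 2 without EZH2i+AKTi B, a library of the same fit, and the 10 lower under AKTi became 6 without DMSO C and 15 without EZH2i+AKTi B. HIST1H3J was scarce, and its EZH2i call was lost under many alternatives, with adjusted p up to 0.193, without EZH2i B. These comparisons share the DMSO libraries.

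HIST1H2BH and HIST2H2AC were higher under EZH2i and lower under AKTi. HIST1H2BH, an H2B gene, had 4.25, 6.07 and 4.43 CPM under EZH2i+AKTi, 14.7, 16.9 and 14.7 under EZH2i, 4, 3.82 and 3.7 under AKTi and 9.8, 9.25 and 10.6 under DMSO. No treated group overlapped DMSO. Its changes were -1.01 ± 0.12 under EZH2i+AKTi (adjusted p = 2.2e-07), 0.65 ± 0.11 under EZH2i (adjusted p = 7.61e-05) and -1.37 ± 0.12 under AKTi (adjusted p = 9e-09). HIST2H2AC had 7.87, 8.28 and 7.96 CPM under EZH2i, 2.24, 2.47 and 1.66 under AKTi and 6.32, 4.64 and 5.76 under DMSO, changes of 0.53 ± 0.15 (adjusted p = 0.00781) and -1.40 ± 0.17 (adjusted p = 6.83e-07). The EZH2i call was lost without DMSO B (adjusted p = 0.06).

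HIST3H2A was higher under each treatment of HCC1395. It had 74.2, 87.9 and 70.5 CPM under EZH2i+AKTi, 32.2, 29.7 and 30.6 under EZH2i, 61.3, 62.7 and 58.2 under AKTi and 23.5, 24.4 and 26.3 under DMSO, so that the 4 groups did not overlap. The change was 0.32 ± 0.08 under EZH2i (adjusted p = 0.00223) and 1.29 ± 0.07 under AKTi (adjusted p = 1.25e-11). Also higher under AKTi were HIST1H3E (1.13 ± 0.13, adjusted p = 2.38e-07), HIST1H2BF (1.08 ± 0.15, adjusted p = 2.91e-06) and HIST1H2AC (0.84 ± 0.16, adjusted p = 0.000145). HIST1H2BJ was at 2.84, 3.21 and 2.66 CPM under AKTi and 7.32, 7.26 and 6.84 CPM under DMSO (-1.30 ± 0.15, adjusted p = 2.23e-07), and the linker gene HIST1H1C was lower by 0.25 ± 0.09 (adjusted p = 0.0321). That HIST1H1C call was lost without DMSO B or C or AKTi A or C (adjusted p up to 0.131). HIST1H2BN was higher under EZH2i (0.56 ± 0.18, adjusted p = 0.0193), a call lost without DMSO C (adjusted p = 0.0897) or EZH2i A (adjusted p = 0.117).

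Set against each single agent, EZH2i+AKTi gave 7 members higher and 9 lower than EZH2i, against 23.9% and 25.1% of all genes, and 6 higher and 3 lower than AKTi, against 17% and 18.6%. The 3 lower than AKTi were HIST2H2BC, HIST1H2BF and HIST1H2BG. The 6 became 2 without AKTi B or EZH2i+AKTi B and 3 without AKTi C. Over EZH2i, HIST3H2A was higher by 1.32 ± 0.07 (adjusted p = 6.2e-12), and HIST1H2BH was lower by 1.66 ± 0.11 (adjusted p = 1.61e-10). Over AKTi, HIST3H2A was higher by 0.35 ± 0.07 (adjusted p = 0.000507) and HIST1H1C by 0.40 ± 0.09 (adjusted p = 0.00221). The interaction, the change under EZH2i+AKTi less the sum of the single changes, was called for 0 members in either direction by edgeR's quasi-likelihood test and for 0 by DESeq2, against 0.526% of all genes higher and 1.06% lower. At an unadjusted p below 0.05 there were 10 members, and the lowest adjusted p was 0.0771, for HIST1H3J. Over all genes the interaction gave 95 higher and 191 lower, and with RLE scaling 146 and 125.

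Many H2A and H2B genes lie head to head, and 13 such divergent pairs were found with starts 123 to 330 bases apart. Both members of a pair were called the same way under EZH2i+AKTi in 2 of 9 tested pairs in HCC38, 3 of 7 in HCC1937 and 0 of 6 in HCC1395. Singly, 28 of 55 members were lower in HCC38 and 21 of 47 higher in HCC1937, against 14.5% and 30.5% of all genes. In HCC1395 9 of 39 were higher and 8 lower, against 32.5% and 27.4%. No such count was made for other pairs of genes, so the pair counts are not a result about pairing. HIST1H2BG with HIST1H2AE and HIST1H2BC with HIST1H2AC were lower in HCC38 and higher in HCC1937, and HIST1H2BJ with HIST1H2AG was higher in HCC1937. HIST2H2BE and HIST2H2AC, with starts 322 bases apart, were called in opposite directions in each line, HIST2H2BE higher and HIST2H2AC lower. The difference within a pair was not tested, and the weaker HIST2H2AC calls in HCC38 and HCC1937 are as given above.

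Annotation of the 3′ end goes with level. Of the 70 members with a coding model, 29 run at least 100 bases past the stop codon and 41 end within 100 bases of it. The median level was 3.61 CPM per kilobase of model for the longer models and 0.541 for the shorter, and 8 of the 10 highest members per kilobase had longer models, both by the mean over all 24 libraries, which HCC38 weighs on most. Taken within a line, 8 of the 10 highest in HCC38, 8 in HCC1937 and 7 in HCC1395 had longer models, and the medians of longer and shorter models were 5.58 and 0.912 CPM per kilobase in HCC38, 4.45 and 0.426 in HCC1937, and 0.736 and 0.276 in HCC1395. HIST1H1C, at 489 CPM per kilobase over the 24 libraries, and HIST1H2BK, at 375, were the exceptions over all libraries, with models that stop at the stop codon. Of the 29 longer models, 20 hold a poly(A) signal hexamer in their last 40 bases, against 24 models in all. Whether the counting used these models is not given in the sources used here. Under EZH2i+AKTi, members with longer models were higher in 17 and lower in 1 of 25 in HCC1937, and those with shorter models were higher in 4 and lower in 3 of 20, against 30.5% of all genes higher and 28.8% lower. In HCC38, 14 of 28 longer and 13 of 23 shorter models were lower, against 14.5% of all genes. In HCC1395, 8 of 20 longer models were higher and 3 lower under EZH2i+AKTi, and 1 of 17 shorter models was higher and 4 lower, against 32.5% and 27.4% of all genes. Under EZH2i, 3 of the 20 longer models and 2 of the 17 shorter were higher and none was lower by edgeR's test, against 18.8% and 14.9%. Under AKTi, 9 of the 20 longer models were higher and 3 lower, and 2 of the 17 shorter were higher and 7 lower, against 27.1% and 22.6%. A difference between the model classes was not tested. A list of 9 members known from the literature to give tailed transcripts had 7 of 9 lower and 1 higher in HCC38, 6 of 8 higher in HCC1937 and 2 of 6 higher in HCC1395 under EZH2i+AKTi, the last near the 32.5% of all genes.

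Genes of S-phase entry were set beside the histone genes. Of 39 genes of the G1/S transition and DNA replication, 16 fell and 1 rose in HCC38, 39 fell in HCC1937 and 38 fell in HCC1395 under EZH2i+AKTi, with median log2 changes of -0.27, -0.84 and -1.38. The shares of all genes that fell were 14.5%, 28.8% and 27.4% in these lines, and 16.8%, 30.5% and 32.5% rose. In HCC1395 38 fell under AKTi alone, against 22.6% of all genes, and 9 fell and 2 rose under EZH2i, against 14.9% and 18.8%. CDC6, which loads the replicative helicase, changed by -0.17 ± 0.09 in HCC38 (adjusted p = 0.212), -1.51 ± 0.06 in HCC1937 (adjusted p = 2.13e-11) and -2.21 ± 0.06 in HCC1395 (adjusted p = 7.25e-17). CCNE2, a cyclin of S-phase entry and the 1 listed gene that rose in HCC38, was there just under the threshold (0.38 ± 0.13, adjusted p = 0.0494). It was lower in HCC1937 (-1.25 ± 0.09) and HCC1395 (-2.07 ± 0.21). Listed genes outside the members, here and below, were not checked under the alternatives, such as leaving out 1 library. MCM10 fell in all 3 lines, by 0.28, 1.56 and 2.14 in HCC38, HCC1937 and HCC1395. The part of these changes in the histone results was not tested.

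SLBP, which binds the stem-loop, averaged 83.3 CPM in HCC38 under EZH2i+AKTi and 88.5 CPM under DMSO, 25.7 CPM in HCC1937 under EZH2i+AKTi and 41.7 CPM under DMSO, and 41.4 CPM in HCC1395 under EZH2i+AKTi, 59.9 under EZH2i, 48.1 under AKTi and 68.5 under DMSO. The change under EZH2i+AKTi was -0.12 ± 0.10 in HCC38 (adjusted p = 0.385), -0.70 ± 0.07 in HCC1937 (adjusted p = 3.5e-07) and -0.74 ± 0.06 in HCC1395 (adjusted p = 5.87e-10). It was lower under AKTi (-0.52 ± 0.06, adjusted p = 1.89e-07) and under EZH2i (-0.19 ± 0.06, adjusted p = 0.0129) as well. NPAT changed by 0.30 ± 0.16 in HCC38 (adjusted p = 0.187), -0.49 ± 0.11 in HCC1937 (adjusted p = 0.00206) and -0.54 ± 0.08 in HCC1395 (adjusted p = 9.15e-06). Of 17 genes of stem-loop processing and histone transcription, 5 fell and 1 rose in HCC38, 10 fell and 1 rose in HCC1937, and 12 fell and 1 rose in HCC1395, where 14.5%, 28.8% and 27.4% of all genes fell. CSTF2, of the cleavage complex, fell in all 3, by 0.60, 0.72 and 0.93 in HCC38, HCC1937 and HCC1395. NFYB, a subunit of the CCAAT-binding NF-Y, rose in HCC1937 (0.34 ± 0.06) and HCC1395 (0.42 ± 0.06).

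Chaperones that carry new histones to DNA were listed as well. Of 18, 5 fell in HCC38, 13 fell in HCC1937, and 13 fell and 1 rose in HCC1395 under EZH2i+AKTi, where 14.5%, 28.8% and 27.4% of all genes fell. CHAF1A and CHAF1B, subunits of the CAF-1 assembly factor, changed by -0.95 ± 0.08 and -1.18 ± 0.06 in HCC1937 and by -1.32 ± 0.06 and -1.50 ± 0.06 in HCC1395. The H3-H4 chaperone NASP fell by 0.29, 0.43 and 0.60 in HCC38, HCC1937 and HCC1395.

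Histone genes outside the replication-dependent set were set beside the members. Most are known to give tailed messenger RNA, and H2AFX is known to give a stem-loop transcript as well as a tailed one. Of 20 listed, 11 were tested in HCC1395, where 3 rose and 4 fell under EZH2i+AKTi, against 32.5% and 27.4% of all genes. Under EZH2i 6 rose, against 18.8% of all genes, and under AKTi 1 rose and 7 fell, against 27.1% and 22.6%. Of the 11 tested in HCC38 4 fell, and of the 11 tested in HCC1937 3 rose and 2 fell, under EZH2i+AKTi, against 14.5% of all genes lower in HCC38 and 30.5% higher and 28.8% lower in HCC1937. The EZH2i+AKTi counts in HCC1395 and HCC1937 are near or below these shares. H1F0, a linker histone of resting cells, rose by 0.75 ± 0.09 in HCC1937 (adjusted p = 1.57e-05) and 1.42 ± 0.05 in HCC1395 (adjusted p = 6.93e-15) under EZH2i+AKTi, and changed by 0.13 ± 0.12 in HCC38 (adjusted p = 0.419). H1FX, another linker histone, rose by 1.04 ± 0.18 in HCC1937 (adjusted p = 0.00457) and 1.12 ± 0.08 in HCC1395 (adjusted p = 4.85e-09), with 0.12 ± 0.20 in HCC38 (adjusted p = 0.685). H2AFX, the H2A variant phosphorylated at DNA breaks, fell in HCC38 (-0.27 ± 0.09), HCC1937 (-0.28 ± 0.06) and HCC1395 (-0.94 ± 0.05).

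Some counts of this family are uncertain by construction. At least 1 50-base stretch is shared with another member in 41 of 75, over 50% of such stretches in 13 and all of them in 4. HIST2H2AA3 with HIST2H2AA4, HIST2H3A with HIST2H3C, HIST2H4A with HIST2H4B and HIST1H4J with HIST1H4K cannot be told apart over most of their length. The sources used here give no strand setting for the counting. In GENCODE 19 members overlap another gene of the count files, 13 of them on the opposite strand. Reads there may be shared or left uncounted. HIST1H2AD, HIST1H3D and HIST1H2AK, with 0 counts in all 24 libraries, are among the 19.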

How the data were processed

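The deposited file of each of the 24 libraries holds the authors' raw gene counts, 1 value for each of 58735 symbol entries, from poly(A)-selected RNA. Per the submitters' processing notes, fastp, HISAT2 2.0.5 and DESeq2 were used with build hg38. For counter, annotation and strand: not given in the sources used here. Normalised tables among the deposited files were set aside. Library totals ran from 33469927 to 51815656 counts, so counting error is small for abundant members and large for those with a few counts per library.

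The software was R 4.3.3 with edgeR 4.0.16, which draws on limma 3.58.1. Settings were filterByExpr (minimum count 10), TMM scaling, robust dispersions and the two-sided quasi-likelihood test on group means, with Benjamini-Hochberg adjusted p called at 0.05 over all genes. Each line had its own fit (17100 genes tested for HCC38, 17692 for HCC1937, 18074 for HCC1395), and 1 joint fit of 20697 genes served differences between lines. Members tested numbered 55, 47, 39 and 57 in these fits, and 20 passed no line's filter. CPM values are scaled by TMM in the joint fit. The SE is the log2 change over the square root of the F statistic.

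Of 57167 symbols 57142 were matched to GENCODE 29 for positions and gene models. Promoters came from RefSeq on GRCh38.p14. Per-library values are given for the 10 most abundant members, those called in all 3 lines, those called in opposite directions and the largest changes above 1 CPM. The members and gene lists were chosen with earlier results of these data known. Alternatives were RLE scaling, no filter, a filter of 1 CPM in 3 libraries, DESeq2 1.42.0, the replicate letter as a block, only the groups compared, and each library left out. Sums without HIST3H2A were added after seeing the data. Replicates differed by more than sampling noise, at a chi-square per gene of 2.56 to 88.2.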

Additional observations from a re-analysis of the deposited data

Results flagged for a closer look

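The results below stand out because the change under EZH2i+AKTi over DMSO went in opposite directions in a pair of lines and the difference of the changes was itself called in the joint fit. Each value is a difference of log2 changes, from edgeR's quasi-likelihood test. The genes were picked by these opposite calls in the same libraries, so the called difference is no separate support. The share of all genes called in opposite directions was not counted. No explanation was weighed.

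For HCC38 minus HCC1937, the linker gene HIST1H1C gave -1.89. Among H2A genes HIST1H2AE gave -1.82, HIST1H2AC -1.00 and HIST1H2AI -0.82. Among H2B genes HIST1H2BD gave -0.99, HIST1H2BC -0.99, HIST1H2BG -0.83 and HIST1H2BJ -0.65. The H3 gene HIST1H3B gave -0.92, and the H4 genes HIST1H4K, HIST1H4E and HIST4H4 gave -1.74, -1.33 and -1.28. For HCC38 minus HCC1395, HIST1H4K gave -1.75, HIST4H4 -1.44 and HIST1H2AC -0.79. For HCC1937 minus HCC1395, HIST1H2BJ gave 1.40 and HIST1H2BG 1.39.

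These differences kept their calls under every alternative run, as did the HCC38 changes of HIST1H2BC, HIST1H4E and HIST1H4K. The HCC38 changes of the other genes named here lost their calls when 1 or another library was left out.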

How the results depend on the processing

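Of 288 called changes of members, 5722 of 5723 values under the alternatives kept their direction. The exception was HIST2H4B in HCC38 against HCC1395 under DMSO, which was -0.14 with the replicate block (adjusted p = 0.924). The cause was not tested here or for any count below.

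Counts that moved by over 1.5 times were few. With a filter of 1 CPM in 3 libraries, which tests fewer genes, 5 members were lower under AKTi in HCC1395, 5 were lower under EZH2i+AKTi in HCC1395, and 0 were lower for HCC1937 minus HCC1395. The last count was also 0 with RLE scaling and with DESeq2. Without the most abundant member of each type, the log2 ratio of the summed levels over DMSO was 0.51 under EZH2i+AKTi, 0.17 under EZH2i and 0.36 under AKTi in HCC1395, and -0.21 under EZH2i+AKTi in HCC38. Without HIST3H2A, an alternative chosen after seeing the data, the HCC1395 ratios were 0.0199 under EZH2i+AKTi, 0.0546 under EZH2i and -0.0426 under AKTi, and that of the H2A sum was -0.12 under EZH2i+AKTi. Leaving out 1 library gave 3 to 5 members higher and 0 to 2 lower under EZH2i, 6 to 15 lower under AKTi, and 2 to 7 higher under EZH2i+AKTi than under AKTi. It gave 0 to 1 higher and 13 to 27 lower in HCC38, 2 to 4 lower in HCC1937, and 0 to 1 lower for HCC1937 minus HCC1395. The interaction gave 0 to 1 higher and 0 to 1 lower, the 1 arising without EZH2i+AKTi C.

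The labels do not say that a replicate letter marks a shared batch. For each library the deviation of every gene from its group mean was taken, on the log2 scale. Between groups of a line, these deviations were correlated for libraries of the same letter. The correlations were -0.131 to 0.169 in HCC38, -0.319 to -0.0957 in HCC1937 and -0.127 to 0.154 in HCC1395. The letters were therefore not taken as pairs. With the replicate block, 27 members were lower and 1 higher in HCC38, 3 lower and 21 higher in HCC1937, and 7 lower and 9 higher in HCC1395 under EZH2i+AKTi, and 0 were lower in HCC38 than in HCC1937 under DMSO. HIST2H2AC was then at adjusted p = 0.0743 in HCC1937. Over all genes the interaction gave 95 higher and 191 lower, and 285 and 193 with DESeq2. Depth limits members with a few counts per library, and intervals or floors cover counting error only.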
